A study of Rattus norvegicus with 6 samples.

Results

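Claudins are the membrane proteins that set what a tight junction lets through, and 10 claudin genes of the kidney tubule were measured here in the renal cortex of rats given dipropylene glycol (DPG), a glycol solvent, or water. They are Cldn1, Cldn2, Cldn3, Cldn4, Cldn7, Cldn8, Cldn10, Cldn14, Cldn16 and Cldn19, taken from 15645 genes that the array's probes could be matched to. A probe counted as a member where the RefSeq transcript in its annotation belongs to one of these genes, which gave 20 probes of 61537, and the family was chosen by its difference between the DPG and water arrays, which was already known (Cldn16 above all). For that reason the differences between the groups are given as a description of these arrays, with standard errors and without p-values.

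The animals were 6 male Sprague-Dawley rats, bought when 5 weeks old. Of these, 3 received water and 3 received DPG at 1000 mg/kg/day, each for 4 weeks. Each animal's cortex RNA was read on its own Agilent array with the dye Cy3, and the small number of arrays sets the precision. Renal cortex is a mixture of glomeruli, proximal tubules, thick ascending limbs, distal tubules and cortical collecting ducts.

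In the tubule, claudins of neighbouring cells meet in the space between the cells and either seal it or form pores that pass chosen ions. Each nephron segment has its own set, so the claudins follow the path of the filtrate. Claudin-2 makes the proximal tubule leaky to cations and water, claudin-10, claudin-14, claudin-16 and claudin-19 act largely in the loop of Henle, and claudin-3, claudin-4, claudin-7 and claudin-8 line the tighter distal segments. Claudin-1 is best known from the parietal cells of Bowman's capsule.

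Signals are given as multiples of the 75th percentile of all non-control probes on the same array, and are called scaled signal. A probe's brightness depends on its own sequence, so the scaled signal of one probe is set only against itself on other arrays. All 20 claudin probes were well above background on all 6 arrays. Between 39556 and 43184 of all probes reached that level per array, and 0 were saturated. The water arrays lay on 1 slide and the DPG arrays on another, each slide with its own scan, so slide or scan and treatment cannot be told apart for any value below.

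Of the 10 claudin genes, 8 had a log2 fold change (DPG over water) above 0, with a median of 0.22, where the median over all 29647 features was 0.00350. A feature is a gene, or an unmatched transcript, represented by its brightest usable probe. For 5 of the 10 genes, Cldn2, Cldn3, Cldn10, Cldn16 and Cldn19, every DPG array lay above every water array. Over all features 19.7% did not overlap, 10.7% with DPG higher and 8.96% with DPG lower. In bulk tissue, more cells of a type and more RNA per cell cannot be told apart. The limma test with Benjamini-Hochberg adjustment over all features called 0 features at an adjusted p of 0.05 (0% of all features), none of the claudins included, and 3669 features passed an unadjusted p of 0.05. With 3 against 3 animals, an exact two-sided permutation test of a single gene cannot give a p below 0.1.

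**Figure D1:**
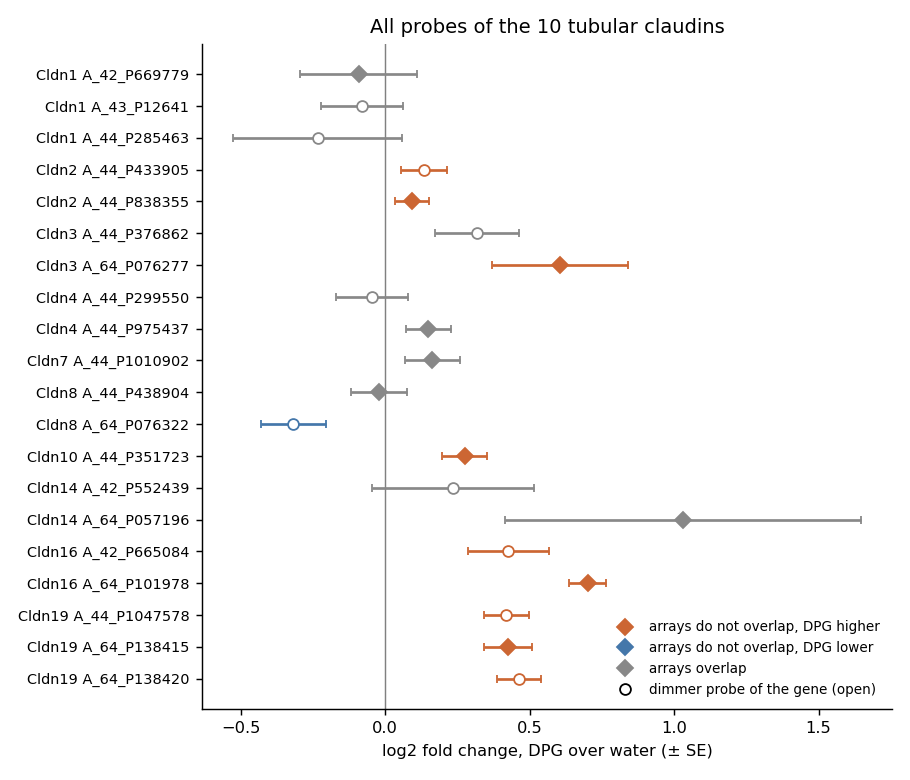
Log2 fold change of DPG over water (x axis, ± SE from limma, 3 arrays per group) for each of the 20 probes of the 10 claudin genes; diamonds mark the brightest probe of a gene and open circles the dimmer ones. All probes of Cldn16 and Cldn19 lie to the right of 0 with groups that do not overlap, and 1 probe of Cldn8 is the only one with non-overlapping groups on the left.

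Among the claudins of the thick ascending limb, every DPG array lay above every water array for Cldn16, Cldn19 and Cldn10, but not for Cldn14. This segment reabsorbs salt through its cells and, driven by the voltage that results, magnesium and calcium between them. Claudin-16 and claudin-19 together form the cation-selective path for these ions, and loss of either causes urinary wasting of magnesium and calcium. Cldn16 had scaled signals of 0.646, 0.684 and 0.637 in water rats 1 to 3, and 1.08, 1.08 and 1.05 in DPG rats 1 to 3. Every DPG array was above every water array, and the gap between the groups was wide beside the spread within either: the means were 0.656 ± 0.0251 and 1.07 ± 0.0171 (SD, n = 3 each). The log2 fold change was 0.70 ± 0.06 (SE), a 1.63-fold difference. The second Cldn16 probe gave 0.678, 0.858 and 0.594 in water and 0.958, 0.926 and 0.946 in DPG. Its groups did not overlap either, but the water animals spread more and the log2 fold change was smaller, 0.43 ± 0.14 (SE). In the water arrays this second probe was the brighter of the pair, with a mean of 0.710. Over all 6 arrays the first was brighter, so its choice to stand for Cldn16 rested on its DPG signals. Comparisons of Cldn16 with markers and other genes below use the first probe.

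Cldn19, the partner of Cldn16, was read by 3 probes that differed little among themselves. The brightest had scaled signals of 7.36, 7.54 and 6.79 in water rats and 8.96, 9.93 and 10.2 in DPG rats. The lowest DPG array lay above the highest water array, with means of 7.23 ± 0.392 and 9.71 ± 0.666 (SD, n = 3 each) and a 1.34-fold difference. The log2 fold change of this probe was 0.42 ± 0.08 (SE), and the other 2 probes had 0.42 ± 0.08 and 0.46 ± 0.08. One of these dimmer probes was the tightest in the water group, with 1.63, 1.58 and 1.59, against 2.03, 2.27 and 2.34 in DPG. All 3 probes had non-overlapping groups, and DPG 1 was the lowest DPG array in each.

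Cldn10 encodes 2 main forms that start at different first exons, a cation pore (claudin-10b) of the thick ascending limb and an anion pore (claudin-10a) of the proximal tubule. Its only matched probe had scaled signals of 5.14, 4.82 and 5.37 in water rats and 6.26, 6.50 and 5.81 in DPG rats. The groups did not overlap, and the means were 5.11 ± 0.276 and 6.19 ± 0.347 (SD, n = 3 each), a 1.21-fold difference with a log2 fold change of 0.28 ± 0.08 (SE). The probe's transcript is NM_001106058, and the sources used here do not say which of the forms it reads.

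Cldn14 behaved unlike Cldn10, Cldn16 and Cldn19. Claudin-14 binds claudin-16 and closes its cation path, and it is induced by a high calcium load through the calcium-sensing receptor. Its brighter probe had scaled signals of 0.105, 0.165 and 0.0986 in water rats, and 0.393, 0.408 and 0.0910 in DPG rats. DPG 1 and DPG 2 lay above all water arrays, while DPG 3 lay below all of them. The log2 fold change of 1.03 ± 0.62 (SE) is therefore an average of unlike animals, and it was 1.74 without DPG 3, 0.66 without DPG 2 and 0.69 without DPG 1. A second probe of the same transcript showed DPG arrays at 0.130, 0.114 and 0.0717 and water arrays at 0.0816, 0.115 and 0.0697. There DPG 3 was again the lowest DPG array, the groups overlapped, and the log2 fold change was 0.23 ± 0.28 (SE), so the level of DPG 1 and DPG 2 against water differed between the probes.

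**Figure D2:**
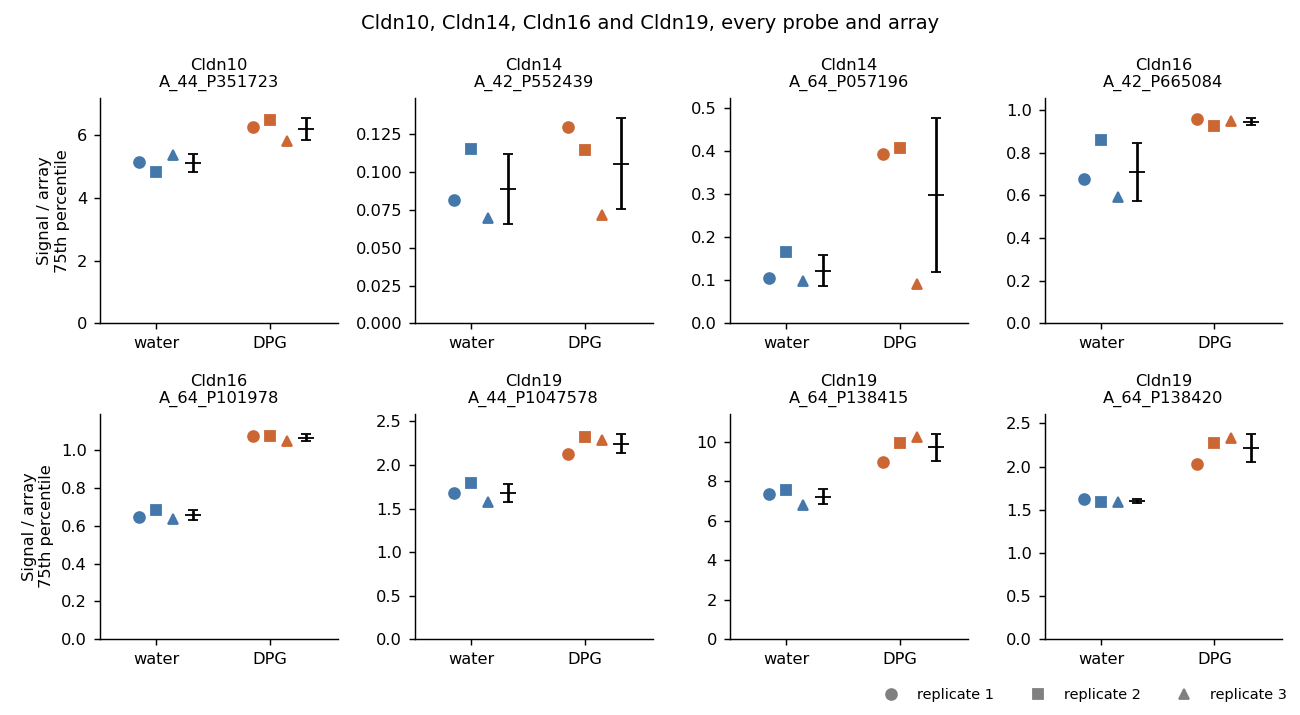
Scaled signal (y axis, linear from 0, signal divided by the array's 75th percentile) of every probe of Cldn10, Cldn14, Cldn16 and Cldn19 in each water and DPG array; marker shapes give the replicate, and bars the mean ± SD of 3 arrays. The groups are apart in all panels of Cldn10, Cldn16 and Cldn19, and in the panels of Cldn14 the DPG 3 triangle lies among or below the water arrays.

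The promoters of these 4 genes are shown because their brightest probes were all higher in DPG 1 and DPG 2 than in any water array, with Cldn14 apart from the others in DPG 3. The same held for the brightest probes of Cldn2 and Cldn3. No promoter was at hand for Cldn2, and that of Cldn3 is shown further below. Each promoter is the run of 250 bases before the start of the RefSeq gene or transcript, from the RefSeq table for GRCr8, written 5′ to 3′ on the strand of the gene. Capitals mark matches, on either strand, to the 6 motifs searched: the TATA box TATAAA, the GC box GGGCGG, the CCAAT box CCAAT, the E-box CACCTG bound by Snail repressors of claudin genes, the grainyhead motif AACNGGTT and the AP-1 site TGANTCA.
Cldn16, chr11:87814397-87814646, minus strand: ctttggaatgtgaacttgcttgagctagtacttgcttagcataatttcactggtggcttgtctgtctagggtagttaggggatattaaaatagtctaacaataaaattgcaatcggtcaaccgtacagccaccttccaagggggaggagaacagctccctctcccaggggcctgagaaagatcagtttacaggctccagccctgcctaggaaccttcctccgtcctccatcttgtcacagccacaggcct
Cldn19, chr5:138148325-138148574, plus strand: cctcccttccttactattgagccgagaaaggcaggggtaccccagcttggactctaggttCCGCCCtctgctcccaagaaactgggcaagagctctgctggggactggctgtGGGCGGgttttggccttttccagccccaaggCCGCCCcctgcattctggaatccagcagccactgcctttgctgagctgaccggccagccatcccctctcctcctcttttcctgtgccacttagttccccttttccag
Cldn10, chr15:102269608-102269857, plus strand: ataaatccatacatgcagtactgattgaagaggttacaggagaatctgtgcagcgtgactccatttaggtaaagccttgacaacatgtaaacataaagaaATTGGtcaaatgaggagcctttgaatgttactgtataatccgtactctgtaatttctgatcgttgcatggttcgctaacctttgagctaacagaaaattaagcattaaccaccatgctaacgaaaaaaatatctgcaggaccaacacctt
Cldn14, chr11:46711739-46711988, minus strand: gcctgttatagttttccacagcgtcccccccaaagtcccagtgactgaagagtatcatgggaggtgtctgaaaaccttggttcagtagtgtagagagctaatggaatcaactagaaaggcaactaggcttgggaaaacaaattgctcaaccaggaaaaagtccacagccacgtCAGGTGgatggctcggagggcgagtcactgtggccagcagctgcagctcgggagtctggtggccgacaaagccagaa

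No motif was shared by the 4 windows. Cldn19 held 3 GC boxes, 1 of them on the strand of the gene, Cldn10 held 1 CCAAT box on the opposite strand, and Cldn14 held 1 Snail E-box on the opposite strand. The Cldn16 window held no match to any of the 6. Of all 33469 promoter windows of the same length, 30.5% held a GC box, 34% a CCAAT box, 15.9% a Snail E-box, 12.9% a TATA box, 6.34% an AP-1 site and 1.76% a grainyhead motif. Base composition also differed, from 38% G or C in the Cldn10 window and 49.2% in Cldn16 to 52.4% in Cldn14 and 60% in Cldn19, where the median of all windows was 51.2%. RefSeq lists further transcripts of Cldn10, Cldn14 and Cldn19, whose starts may lie elsewhere.

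Cldn3, a sealing claudin present from the thick ascending limb to the collecting duct, was also higher in the DPG group, with a wide spread among animals. Its brighter probe had scaled signals of 2.99, 4.52 and 4.66 in water rats and 7.32, 6.41 and 4.73 in DPG rats. DPG 1 and DPG 2 stood clear of the water group, while DPG 3 was barely above water 3, and water 1 was low. The means were 4.06 ± 0.926 and 6.15 ± 1.31 (SD, n = 3 each), and the log2 fold change was 0.61 ± 0.23 (SE), or 0.40 when water 1 was left out. The second probe had 0.929, 1.19 and 1.21 in water and 1.55, 1.40 and 1.20 in DPG, so DPG 3 fell inside the water range and the groups overlapped, with a log2 fold change of 0.32 ± 0.15 (SE). In both probes water 1 was the lowest array and DPG 1 the highest.

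The window before Cldn3 is shown beside the others because Cldn3 carried the most CCAAT boxes of the 8 claudin windows at hand, with matches in capitals as above.
Cldn3, chr12:27346548-27346797, minus strand: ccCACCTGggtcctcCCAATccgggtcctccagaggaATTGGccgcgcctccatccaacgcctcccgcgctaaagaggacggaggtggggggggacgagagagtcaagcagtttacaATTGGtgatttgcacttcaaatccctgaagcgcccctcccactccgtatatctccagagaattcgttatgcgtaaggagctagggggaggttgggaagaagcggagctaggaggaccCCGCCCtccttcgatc

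It held 3 CCAAT boxes, 1 GC box and 1 Snail E-box, and 59.2% of its bases were G or C. Across the 8 claudins with a window, 4 held a GC box (Cldn1, Cldn3, Cldn7 and Cldn19), 3 a CCAAT box (Cldn3, Cldn8 and Cldn10) and 3 a Snail E-box (Cldn3, Cldn7 and Cldn14), and Cldn7 alone held 4 Snail E-boxes. None of the 8 held the TATA box, the AP-1 site or the grainyhead motif as spelled here.

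Cldn4 is the neighbour of Cldn3 in GRCr8, and no test compared these neighbours. Claudin-4 acts with claudin-8 in the collecting duct, where the pair passes chloride. Its brighter probe had 1.04, 1.16 and 1.07 in water and 1.28, 1.15 and 1.20 in DPG. The groups overlapped through water 2 and DPG 2, and the log2 fold change was 0.15 ± 0.08 (SE). The dimmer Cldn4 probe had a log2 fold change of -0.04 ± 0.12 (SE), which made Cldn4 the only member whose probes differed in sign.

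Cldn8, which brings claudin-4 into the junction, was the only member with a probe whose arrays were all lower in DPG. That probe had scaled signals of 0.387, 0.428 and 0.498 in water and 0.345, 0.374 and 0.330 in DPG, with no overlap and a log2 fold change of -0.32 ± 0.11 (SE). Over all probes 9.21% had non-overlapping groups with DPG lower. The brighter probe did not show this: its arrays read 0.846, 0.900 and 0.753 in water and 0.767, 0.886 and 0.808 in DPG, and its log2 fold change was -0.02 ± 0.10 (SE). The probes of 1 transcript thus gave unlike answers for Cldn8.

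Cldn7, a claudin of the distal nephron and collecting duct found along the sides of the cells as well as at the junction, had 1 probe. It read 0.706, 0.820 and 0.753 in water and 0.914, 0.778 and 0.863 in DPG. The groups overlapped because DPG 2 lay below water 2, and the log2 fold change was 0.16 ± 0.09 (SE), with means of 0.760 ± 0.0569 and 0.852 ± 0.0685 (SD, n = 3 each).

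In the proximal tubule, Cldn2 varied least among the members by their brightest probes. Its brighter probe read 10.35, 9.99 and 10.53 in water and 11.02, 11.02 and 10.87 in DPG. The groups did not overlap, but they lay close: the means were 10.29 ± 0.275 and 10.97 ± 0.0862 (SD, n = 3 each), a 1.07-fold difference with a log2 fold change of 0.09 ± 0.06 (SE). The second probe had 0.13 ± 0.08 (SE), again with DPG higher and no overlap.

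Cldn1 showed no difference that stood out from the spread among animals. Its brightest probe read 0.554, 0.520 and 0.681 in water and 0.723, 0.449 and 0.500 in DPG. DPG 1 held the highest value of the 6 arrays and DPG 2 the lowest, and the log2 fold change was -0.09 ± 0.20 (SE). A second probe, at 0.480, 0.240 and 0.286 in the DPG rats, put DPG 1 highest and DPG 2 lowest as well, while the third, at 0.162, 0.193 and 0.228, put DPG 1 lowest. Cldn1 lies next to Cldn16 in GRCr8, and these neighbours had log2 fold changes of -0.09 and 0.70.

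At the level of single probes, 10 of the 20 had groups that did not overlap, 9 with DPG higher and 1 with DPG lower, where 19.7% of all 40383 kept probes did not overlap and 10.5% had DPG higher. The 9 higher ones were the 3 probes of Cldn19, both of Cldn16, both of Cldn2, the 1 of Cldn10 and the brighter one of Cldn3. Probes of 1 gene share their target and are not independent measurements of the treatment.

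Markers of the nephron segments also differed between the same arrays, and their values stand here beside the claudins. Over all features 10.7% had non-overlapping groups with DPG higher and 8.96% with DPG lower. Of 10 measured thick ascending limb genes, 8 lay above 0 and 5 had non-overlapping groups with DPG higher, with a median log2 fold change of 0.24. They include the uromodulin gene Umod (0.25 ± 0.07, SE), the salt transporter gene Slc12a1 (0.47 ± 0.13), Tmem72 (0.49 ± 0.10) and the calcium-sensing receptor gene Casr (0.23 ± 0.10). The mean of this list, taken against its water mean, was between -0.08 and 0.12 in the water arrays and between 0.18 and 0.32 in the DPG arrays.

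Within each array the claudins were therefore also set against the mean of these 10 markers, a step added after the values had been seen. Relative to the markers Cldn16 was higher by 0.45 (log2), with the water arrays between -0.06 and 0.03 and the DPG arrays between 0.39 and 0.53. Cldn19 was higher by 0.18, and its groups did not overlap. Cldn10 was higher by 0.03, Cldn3 by 0.36 and Cldn14 by 0.78, each with overlapping groups. By these ratios Cldn16 and Cldn19 differed by more than the mean of these markers, while for Cldn10 the arrays of both groups lay in one range. The claudins were chosen by their difference, so a value above the marker mean is a description and no test. Single markers also differed from that mean: Tmem72 (0.49) and Slc12a1 (0.47) lay above the 0.42 of Cldn19, and Umod (0.25) and Casr (0.23) below it.

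Lists of markers of deeper parts of the kidney differed more by their medians. Non-overlapping groups with DPG higher made up 10.7% of all features. Thin limb and inner medulla markers had 4 of 5 genes with non-overlapping groups and DPG higher, a median log2 fold change of 0.70 and list means between 0.69 and 0.88 in DPG against -0.20 to 0.15 in water. Among them were the chaperone gene Cryab (1.56 ± 0.35, SE) and the transporter gene Slc4a11 (1.51 ± 0.28). Slc14a2 of the same list went the other way, at -0.15 ± 0.16 with overlapping groups. Markers of the straight proximal tubule had 4 of 6 non-overlapping and higher, with a median of 0.56, led by Slc7a13 (0.78 ± 0.16) and Slc22a7 (0.75 ± 0.23). Slc5a1 of that list was below 0, at -0.12 ± 0.15 with overlapping groups. Slc14a2 and Slc5a1 are named after their values were seen. The depth of the sampled tissue was not measured. What lies behind these marker differences, and whether it bears on the claudin values, was not tested.

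Markers of the convoluted proximal tubule and of podocytes lay on the other side, where 8.96% of all features had non-overlapping groups with DPG lower. All 9 convoluted proximal tubule genes were below 0, 6 of them with non-overlapping groups, and their median was -0.23, with the glucose transporter gene Slc2a2 at -0.40 ± 0.13 (SE) and the bicarbonate transporter gene Slc4a4 at -0.30 ± 0.10. Set against the mean of this list, the difference of Cldn2 was 0.32 instead of 0.09. Against the same mean, Cldn10 was higher by 0.50, with the water arrays between -0.07 and 0.04 and the DPG arrays between 0.41 and 0.55. Podocyte genes had a median of -0.21, with 3 of 6 non-overlapping and lower, among them Nphs1 (-0.28 ± 0.11) and Ptpro (-0.22 ± 0.07). The podocyte list mean ran from -0.17 to 0.29 in water and from -0.34 to -0.02 in DPG, and Cldn1 relative to it differed by 0.09 with overlapping groups.

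In the distal segments, where Cldn4, Cldn7 and Cldn8 are found, the lists were level or lower. The share of all features with non-overlapping groups and DPG lower was 8.96%. Principal cell genes had a median of 0.01 and list means from -0.09 to 0.12 in water and from -0.14 to 0.0023 in DPG, and only Gata3, a transcription factor gene, had non-overlapping groups (-0.15 ± 0.06, SE). Intercalated cell genes had a median of -0.23 and 5 of 9 non-overlapping and lower, including the anion exchanger gene Slc26a4 (-0.40 ± 0.13) and the proton pump gene Atp6v1g3 (-0.30 ± 0.11). Of the 5 measured distal convoluted and connecting tubule genes, all below 0 with a median of -0.17, the calcium channel gene Trpv5 had -0.42 ± 0.08 and the kallikrein gene Klk1 -0.17 ± 0.10, both non-overlapping. Relative to principal cell genes, Cldn3 was higher by 0.66, Cldn7 by 0.21, Cldn4 by 0.20 and Cldn8 by 0.03, each with overlapping groups.

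**Figure D3:**
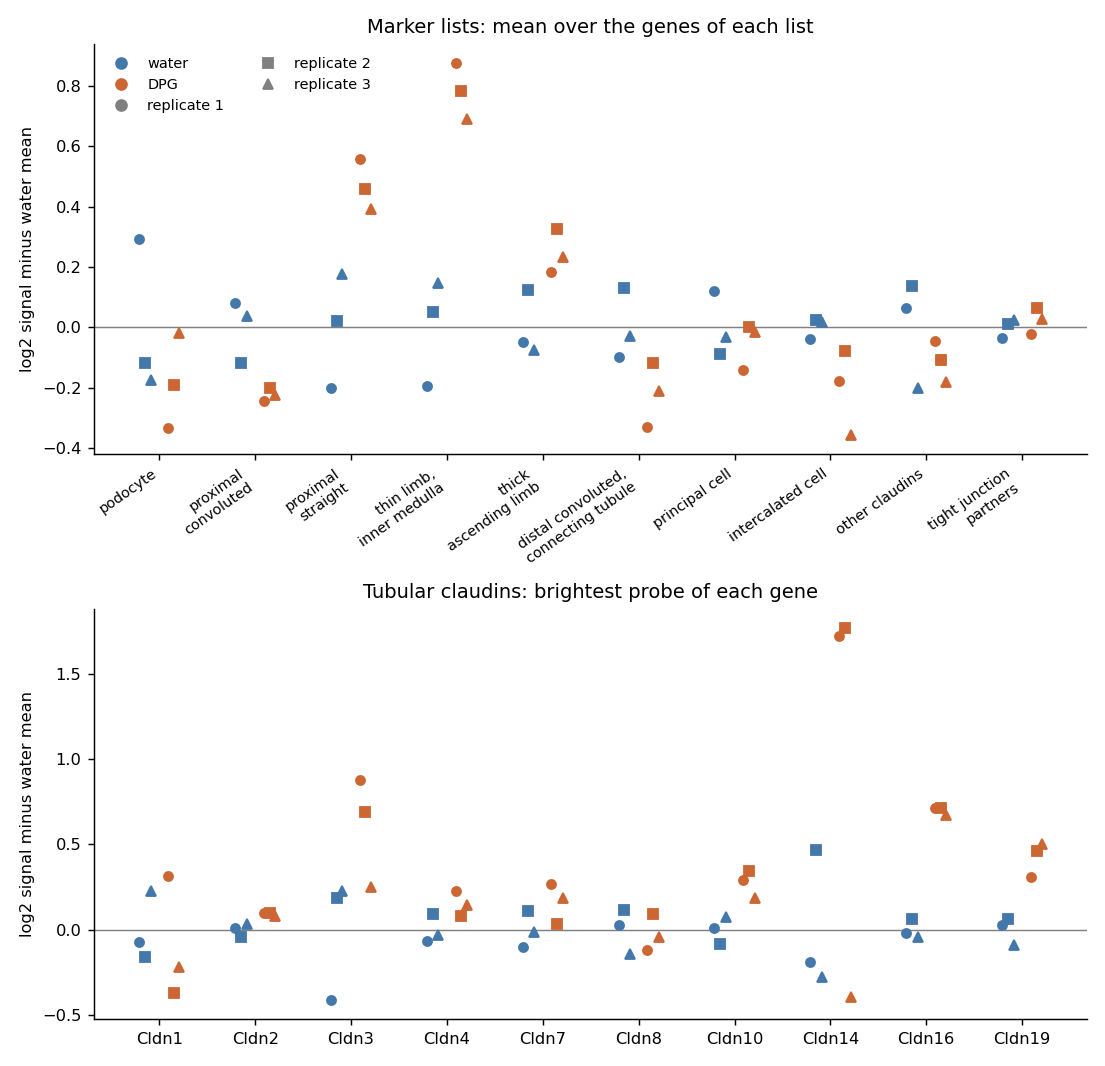
Log2 signal minus the water mean (y axis) in each of the 6 arrays, for the mean of each marker list (top) and for the brightest probe of each of the 10 claudins (bottom); blue is water, orange DPG, and shapes give the replicate. The thin limb and inner medulla list lies between 0.69 and 0.88 in the DPG arrays, the thick ascending limb list between 0.18 and 0.32, and Cldn14 splits the DPG arrays into a high pair and a low DPG 3.

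Partners of claudins at the junction were also listed. Of 23 listed genes 21 were measured, 12 above and 9 below 0, with a median log2 fold change of 0.05, 4 non-overlapping with DPG higher and 1 lower, and 0 past the adjusted threshold. This count of 5 in 21 is near the 19.7% of all features. The scaffold gene Tjp1 had 0.07 ± 0.10 (SE), the occludin gene Ocln 0.09 ± 0.13 and the tricellulin gene Marveld2 0.10 ± 0.11, with overlapping groups. The scaffold gene Tjp3 had 0.29 ± 0.08 and read 1.70, 1.80 and 1.67 in water against 1.98, 2.08 and 2.26 in DPG. Tjap1, a junction-associated protein gene, had 0.19 ± 0.07, also without overlap.

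Of 13 measured genes that regulate claudins or paracellular ion transport, 6 lay above and 7 below 0, with a median of -0.01 and 0 past the adjusted threshold. The groups did not overlap for 2 with DPG higher and 1 with DPG lower, which is near the 19.7% of all features. Besides Casr, the kinase gene Wnk4 had non-overlapping groups, with -0.25 ± 0.08 (SE) and scaled signals of 1.38, 1.25 and 1.28 in water against 1.13, 1.14 and 1.00 in DPG. The WNK4 kinase can phosphorylate claudins. The third was Fxyd2, a sodium pump subunit gene tied to inherited magnesium wasting, at 0.12 ± 0.06. Fxyd2 is named after its values were seen.

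Other claudins, known from other tissues or little studied in the tubule, were listed for comparison. Of 13 listed, 12 had a matched probe, and 4 of these had no probe that passed the filter on dim probes. The 8 measured ones had a median of -0.11, with 3 above and 5 below 0. By the brightest probe 0 of the 8 had non-overlapping groups, against 19.7% of all features. Of the 8, Cldn6, Cldn22 and Cldn24 were dim and imprecise, with standard errors of 0.51, 0.46 and 0.45. The Cldn6 probe was well above background on only 5 arrays. The endothelial claudin gene Cldn5 had 0.13 ± 0.11 (SE). One dimmer probe, of Cldn23, read 0.0872, 0.130 and 0.123 in water and 0.541, 0.468 and 0.273 in DPG, a log2 fold change of 1.88 ± 0.29, while the brighter Cldn23 probe had 0.05 ± 0.13. Dimmer probes of Cldn9 and Cldn12 had non-overlapping groups with DPG lower, at -0.65 ± 0.41 and -0.61 ± 0.14, while their brighter probes had -0.24 ± 0.20 and -0.06 ± 0.12 with overlapping groups. Cldn6, Cldn22, Cldn24 and these probes of Cldn23, Cldn9 and Cldn12 were named after their values were seen. No test compared the other claudins with the tubular claudins.

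The genes whose 6 arrays lay nearest to Cldn16, by root mean square difference of log2 deviations from the water mean, were Tinagl1 (difference 0.0653), Car5b (0.0711) and Hspb1 (0.0766), the last of which is also in the thin limb and inner medulla list. Tinagl1 had a log2 fold change of 0.67 ± 0.08 (SE), Car5b 0.78 ± 0.07 and Hspb1 0.70 ± 0.07.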

How the data were processed

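The values started from the deposited processed spot intensity (linear, background subtracted and detrended across the slide, not scaled between arrays), made with Agilent Feature Extraction 10.7.1.1 per the file headers (10.7 per the submitters' processing notes). The authors also deposited one value table for all arrays, in which each value is a ratio, constant within an array, to about the 75th percentile of that array. The method behind it is unstated. It served as an alternative.

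From the log2 of each signal the 75th percentile of its array was subtracted. Probes well above background on all 3 arrays of a group were kept (40406), and 23 with an outlier flag were dropped. Accessions, without versions, named 28206 probes through RefSeq genes of GRCr8, and the other 33331 carry the file's own identifier. The brightest kept probe stood for a gene. The comparison used limma 3.58.1 under R 4.3.3 (4 residual and 1.95 prior degrees of freedom), and the fit was tested on simulated data. Standard errors of dimmer probes come from the same fit over all 40383 kept probes. Alternatives were background correction, scaling, the filter on dim probes, outlier flags, the mean of probes, the variance model, a block for replicate number, the authors' value table and each animal left out. Normexp used the median pixel intensity of spot and local background, per the file headers.

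The claudins and gene lists were chosen with earlier results of these data known. Named genes are all members, up to 2 of each list with the largest non-overlapping difference, a fixed set of junction and thick ascending limb genes, and the 3 nearest to Cldn16. A gene that this rule names is not reported here. Leukocyte, adipocyte and endothelium lists had medians of 0.13, 0.56 and -0.03, each of few genes. Their named members were Cd79b (-1.07 ± 0.36, SE), Adipoq (-0.45 ± 0.14), Pecam1 (0.18 ± 0.07) and Ehd3 (0.37 ± 0.11). Of the leukocyte and adipocyte lists, other members had the opposite sign to Cd79b and Adipoq, with overlapping groups: Cidec (0.56 ± 0.20), Fabp4 (1.89 ± 0.70), Cd3e (0.89 ± 0.34), Ptprc (0.19 ± 0.16) and Cd68 (0.13 ± 0.14).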

Additional observations from a re-analysis of the deposited data

How the results depend on the processing

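The count of claudin genes with non-overlapping groups was 5, and it lay between 5 and 6 in the alternatives that kept all animals and between 5 and 7 with an animal left out. Without DPG 1 it was 6, of which 5 had DPG higher and 1, Cldn1, had DPG lower. The median of the 10 log2 fold changes, 0.22, lay between 0.19 and 0.24 with an animal left out. In the alternatives that kept all animals it lay between 0.21, with quantile normalization, and 0.28, with normexp. Features past the adjusted threshold numbered 1 without DPG 2 and 0 without each other animal. With an animal left out, the count of features with non-overlapping groups, 5831 of 29647, ranged from 8190 to 10173, where fewer arrays make overlap rarer. The 6 or 7 claudin genes there thus stand beside a larger share of all features. Cldn2, Cldn3, Cldn4, Cldn7, Cldn10, Cldn14, Cldn16 and Cldn19 kept a positive log2 fold change in each of the 16 alternatives. Not all of these could alter it. The filter on dim probes, the outlier flags, the variance model and the replicate block left the claudins' log2 fold changes identical. The authors' value table, with nearly the same scaling, left them almost so (Cldn16 0.70). Cldn16 had 0.52 with normexp and 0.56 as the mean of its probes. Cldn4 had 0.23 with normexp and 0.17 with median scaling, both without overlap, and 0.05 as the mean of its probes. Cldn8 had -0.17 as the mean of its probes, 0.04 without water 2 and 0.03 without DPG 1. Cldn1 had 0.05 without DPG 2, 0.02 without water 3 and -0.29 without DPG 1. The replicate block left the number past the adjusted threshold at 0. It cannot change the counts of non-overlapping groups, which are taken from the signals without the model. Same-numbered animals did not deviate together (correlations of -0.0225, -0.0871 and -0.0689), so the numbers do not pair them. A slide block could not be fitted, since each group lay on its own slide.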
